A study of Homo sapiens with 42 samples.

Results

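Genes of the epidermal barrier and of antimicrobial defence were followed in human lung fibroblasts made senescent by oncogenic RAS or by bleomycin. They were chosen by name: every symbol of the late cornified envelope (LCE), small proline-rich (SPRR) and S100A families, together with PI3, SLPI, LCN2, IVL and FLG. This gave 50 of the 28266 gene symbols in the count table, of which 18 were LCE genes, 11 SPRR genes and 16 S100A genes. The set was proposed because PI3 and LCE1F had stood out in RAS-senescent cells with the control shRNA. The comparison of those libraries is therefore given as a description. The tests of RAS senescence use libraries with shRNAs against COPB2, which the choice did not use. These are the same cells under the same induction and share a fit with the former. They repeat the comparison and are no independent test of it.

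Poly(A) RNA had been sequenced in 42 libraries of 12 groups. IMR90 ER:RAS fibroblasts carry an oestrogen receptor fusion of oncogenic RAS, which 100 nM 4-hydroxytamoxifen (4OHT) activates to bring about oncogene-induced senescence (OIS), and were compared with the same cells in DMSO. Parental IMR90 fibroblasts, a lung line, were given 50 µg/ml bleomycin, a DNA-damaging drug, for 24 h, or DMSO. After 7 days, hairpins were switched on with 1 µg/ml doxycycline in all groups, the DMSO controls included. A group carried either the control shRNA or 1 of 2 that target COPB2, a coatomer subunit, and RNA was taken 72 h later, at day 10. There were 3 libraries per ER:RAS group and 4 per IMR90 group, so 9 OIS, 12 bleomycin and 21 DMSO libraries. The labels give the genotype as wild type and do not say whether either line was a clone. The study's supplement counts the replicates of its COPB2 shRNA comparisons in senescent cells as independent experiments. The labels themselves do not say whether numbered replicates were separate cultures, and where they were not, p-values measure only a spread between libraries that may be technical. Each inducer was used in its own cell line, and the inducer and the line cannot be told apart.

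Keratinocytes of the upper epidermis replace their plasma membrane with a cornified envelope, in which transglutaminases cross-link involucrin (IVL), SPRR and LCE proteins. Most of these genes, and those of the S100A calcium-binding proteins, lie side by side in the epidermal differentiation complex of chromosome 1. PI3 encodes elafin, an inhibitor of neutrophil elastase that is also cross-linked into the envelope. SLPI encodes a related protease inhibitor, LCN2 a lipocalin that binds bacterial siderophores, and FLG filaggrin. In skin, genes of the LCE3 and SPRR2 groups and PI3 are known to be induced by injury and inflammation. Fibroblasts do not form a cornified envelope.

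Promoter sequences of 7 members are shown because these genes went from no or almost no reads to the levels given below, and their windows carry different motifs. RefSeq windows were at hand for 44 of the 50 members, and not for PI3, SLPI, LCE1B, SPRR2C, SPRR2D and SPRR2E. The 250 bases before the annotated start are printed 5′ to 3′ in the direction of the gene, from GRCh38.p14. Capitals mark the AP-1 motif (TGANTCA) or the C/EBP motif (TTGCNNAA), each searched on both strands. The AP-1 motif lay 123 bases before the start of IVL (chr1:152908296-152908545, plus strand) and 197 bases before that of SPRR2A (chr1:153057513-153057762, minus strand). LCN2 (chr9:128149203-128149452, plus strand) held a C/EBP match, printed further upstream, and an AP-1 match 52 bases before the start.
IVL: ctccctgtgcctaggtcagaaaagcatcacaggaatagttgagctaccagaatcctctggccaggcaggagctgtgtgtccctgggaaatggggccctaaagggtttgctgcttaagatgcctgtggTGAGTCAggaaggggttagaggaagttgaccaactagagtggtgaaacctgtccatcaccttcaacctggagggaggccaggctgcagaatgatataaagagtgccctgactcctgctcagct
SPRR2A: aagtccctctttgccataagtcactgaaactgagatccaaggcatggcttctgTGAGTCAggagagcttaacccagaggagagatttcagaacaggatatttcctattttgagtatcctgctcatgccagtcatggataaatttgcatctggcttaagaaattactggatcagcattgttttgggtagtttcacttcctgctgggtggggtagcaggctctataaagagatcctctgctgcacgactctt
LCN2: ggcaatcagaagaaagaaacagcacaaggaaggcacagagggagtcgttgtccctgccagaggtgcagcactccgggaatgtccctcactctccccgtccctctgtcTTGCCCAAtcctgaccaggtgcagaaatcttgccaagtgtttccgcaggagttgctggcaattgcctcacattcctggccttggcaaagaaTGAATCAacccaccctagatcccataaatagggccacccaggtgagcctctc

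The LCE2 genes shared a C/EBP match on the opposite strand, 76 bases before the start in LCE2A (chr1:152698095-152698344, plus strand) and 77 bases before it in LCE2C (chr1:152675029-152675278, plus strand). LCE1F (chr1:152774890-152775139, plus strand) and LCE3D (chr1:152580517-152580766, minus strand), the LCE genes with the most reads in OIS, held neither motif in this window.
LCE2A: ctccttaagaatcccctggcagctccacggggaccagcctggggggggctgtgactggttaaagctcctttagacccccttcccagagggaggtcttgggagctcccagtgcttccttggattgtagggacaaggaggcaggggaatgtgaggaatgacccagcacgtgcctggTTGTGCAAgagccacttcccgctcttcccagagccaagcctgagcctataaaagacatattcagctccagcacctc
LCE2C: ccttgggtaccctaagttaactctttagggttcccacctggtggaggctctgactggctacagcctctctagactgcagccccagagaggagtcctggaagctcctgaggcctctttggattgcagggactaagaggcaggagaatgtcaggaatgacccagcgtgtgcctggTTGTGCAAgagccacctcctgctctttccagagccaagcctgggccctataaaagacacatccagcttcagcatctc
LCE1F: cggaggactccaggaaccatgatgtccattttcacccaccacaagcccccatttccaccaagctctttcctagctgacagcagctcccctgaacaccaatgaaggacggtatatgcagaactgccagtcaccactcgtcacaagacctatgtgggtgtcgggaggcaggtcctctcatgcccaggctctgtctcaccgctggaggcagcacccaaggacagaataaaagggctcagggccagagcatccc
LCE3D: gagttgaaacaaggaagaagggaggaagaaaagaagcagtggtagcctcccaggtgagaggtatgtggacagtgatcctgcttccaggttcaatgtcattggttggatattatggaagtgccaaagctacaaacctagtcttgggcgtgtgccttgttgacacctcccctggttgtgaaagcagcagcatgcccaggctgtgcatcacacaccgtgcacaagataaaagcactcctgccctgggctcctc

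Counted over the whole 300-base windows, which also hold 50 bases after the start, the AP-1 motif was found in 12 of the 44 member windows (27.3%) and in 7.76% of all 27305 windows. The C/EBP motif was found in 9 member windows (20.45%) and in 10.56% of all, and a core of the NF-kB motif (GGGNNTTTC) in 4 (9.09%) and in 4.73%. A single window can hold more than 1 of these motifs, as those of LCN2, FLG and S100A12 did. Matches were also found before genes with few or no reads in OIS: SPRR1A, SPRR1B, SPRR3, SPRR2F and SPRR2G all held an AP-1 match. None of these had more than 2 counts in any OIS library.

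In fibroblasts that had not been made senescent the barrier genes were silent or nearly so. Of the 50 members, 30 had no count in any of the 21 DMSO libraries, and 3 (LCE3B, LCE3C and LCE6A) had none in any library. Library totals ran from 13148194 to 23597310 counts, and levels are given as CPM, counts scaled to the TMM-adjusted total of each library. Summed over the 18 LCE genes, a DMSO library held 0 to 5 counts in ER:RAS cells and 0 to 3 in IMR90 cells, and no SPRR gene had a count in any of them. At this depth 0 counts in a library allow up to 3. In OIS the summed LCE counts were 1209 to 2294 per library (median 1679) and the summed SPRR counts 15 to 105 (median 68). After bleomycin they were 4 to 24 (median 8.5) and 2 to 20 (median 8). All 9 OIS libraries lay above all 12 bleomycin libraries for LCE counts, whereas the SPRR ranges overlapped.

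**Figure D1:**
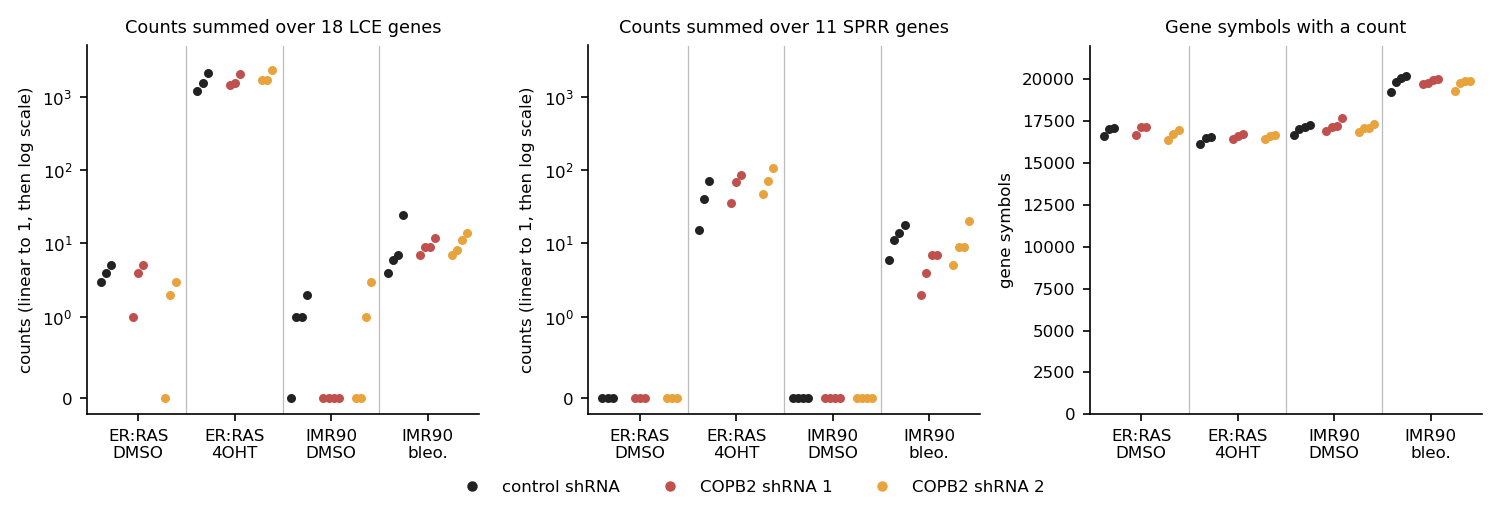
Each point is a library, in columns for DMSO and senescent cells of both lines; the panels show the summed counts of the 18 LCE genes, the summed counts of the 11 SPRR genes and the number of gene symbols with a count. OIS libraries hold 1209 to 2294 LCE counts and bleomycin libraries 4 to 24, while bleomycin libraries detect the most symbols, 19212 to 20161.

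More gene symbols were detected after bleomycin (19212 to 20161 per library) than in the DMSO libraries of IMR90 (16691 to 17706), in OIS (16139 to 16743) or in the DMSO libraries of ER:RAS cells (16379 to 17168). Low counts of many silent genes therefore appeared together in the bleomycin libraries, and the part of this in the low counts reported below was not tested. The bleomycin library numbered 4 stood apart from the others of its group for PI3 with COPB2 shRNA 1 and for SLPI with the control shRNA, and results that rest on the libraries of this number are given with and without them. In these bulk libraries, more cells with a transcript and more RNA in each cell cannot be told apart.

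PI3 had the highest level of the barrier genes in OIS. With the control shRNA its level was 667.5, 382.6 and 297.9 CPM in the 3 OIS libraries, and with the COPB2 shRNAs it ran from 215.6 to 425.2 CPM (median 271.3, n = 6). All 9 OIS libraries held between 3333 and 7398 reads of the gene, and no ER:RAS DMSO library held more than 1. With the COPB2 shRNAs the ratio of OIS to DMSO was 10300, with a 95% counting interval of 3526 to 49970 because the DMSO libraries held 3 reads in all (edgeR adjusted p = 1.816e-10). Such intervals cover counting error alone. Nothing is read from the p-values of genes that, like PI3, passed a filter on low counts only through OIS. The gene lies on chromosome 20 (45174902 to 45176544, GRCh38.p14), away from the epidermal differentiation complex.

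LCE1F, which encodes an envelope protein of the LCE1 group, took 62.67% of all LCE reads in OIS. Its level with the control shRNA was 120.3, 64.74 and 55.86 CPM, and with the COPB2 shRNAs 61.02 to 82.84 CPM (median 67.77). None of the 21 DMSO libraries held a read of it, so that with the COPB2 shRNAs it was at least 2468-fold higher in OIS, against a floor of 3 counts over the DMSO group (edgeR adjusted p = 5.11e-09). LCE3D, of the LCE3 group induced in damaged skin, took a further 15.83% of the LCE reads. It ran at 36.27, 14.01 and 7.6 CPM with the control shRNA and at 8.818 to 30.59 CPM (median 19.14) with the COPB2 shRNAs, again from no read in any DMSO library (at least 650.8-fold, edgeR adjusted p = 2.111e-06). Every OIS library was above every DMSO library for both genes.

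The LCE2 genes followed at lower levels. LCE2A had 19.22, 12.22 and 6.777 CPM with the control shRNA and 7.161 to 15.71 CPM (median 13.03) with the COPB2 shRNAs. It was the only LCE gene whose ER:RAS DMSO libraries held more than 1 read, with up to 5, and its log2 fold change with the COPB2 shRNAs was 6.55 ± 0.45 (SE, edgeR adjusted p = 9.152e-09). LCE2C had 10.29, 5.946 and 3.357 CPM with the control shRNA and 3.788 to 12.81 CPM (median 10.32) with the COPB2 shRNAs, against a single read in the DMSO libraries of the latter (ratio 894, counting interval 160 to 35350, edgeR adjusted p = 1.634e-07). LCE2A thus rose from traces, whereas the DMSO reads of LCE2C were too few to set it apart from LCE1F and LCE3D. LCE2D was lower still, at 1.083, 0.5285 and 0.2533 CPM with the control shRNA and 0.4143 to 2.363 CPM (median 1.336) with the COPB2 shRNAs, from no DMSO read (at least 43.49-fold, edgeR adjusted p = 0.0001259).

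LCE3A had 2.436, 2.048 and 1.647 CPM in OIS with the control shRNA and 1.87 to 3.355 CPM (median 2.887) with the COPB2 shRNAs, and no DMSO library held a read (at least 93.41-fold, edgeR adjusted p = 2.612e-07). LCE3B and LCE3C, its neighbours on chromosome 1, had no read in any library. LCE1C, at 2 to 11 counts per OIS library, was the only other LCE gene to pass 3 counts in every OIS library of a group. Genes of this family are near copies of each other: 12.7% of the 75-base windows of LCE2C are also found in LCE2B and 9.6% of those of LCE3D in LCE3E, whereas LCE1F, LCE2A and LCE3A share none with another gene. Reads in shared stretches could have been counted for either copy or for none.

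**Figure D2:**
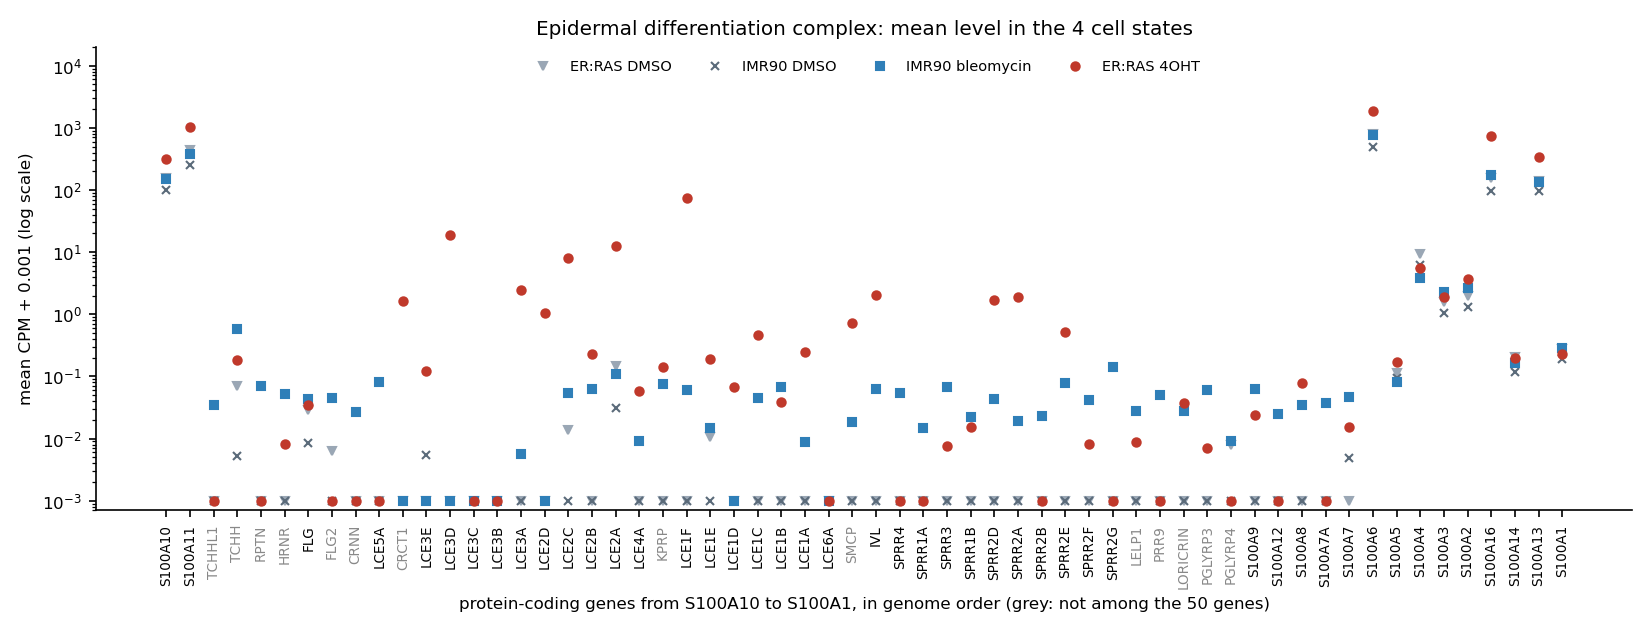
Genes of the epidermal differentiation complex stand in genome order from S100A10 to S100A1 along the x axis, and the y axis gives the mean CPM of each state on a log scale after adding 0.001. The OIS points rise above all others over LCE3D, LCE3A, LCE2D, LCE2C, LCE2A and LCE1F and over IVL, SPRR2D and SPRR2A, LCE3C and LCE3B have no read in any state, and the S100A genes at both ends carry reads in all 4 states.

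Along the chromosome, reads in OIS were not spread evenly over the complex. LCE5A, which lies before the LCE3 genes, had none, and SPRR4, SPRR1A, SPRR2B and SPRR2G also had none in any OIS library. IVL encodes the scaffold on which the envelope is assembled. It had 3.88, 1.652 and 1.963 CPM in OIS with the control shRNA and 0.8801 to 2.974 CPM (median 1.689) with the COPB2 shRNAs, and no read in any DMSO library (at least 63.53-fold, edgeR adjusted p = 1.515e-05).

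Reads of the SPRR family, whose products bridge other envelope proteins, came mainly from SPRR2A (44.88% of 537 reads in OIS) and SPRR2D (41.15%). SPRR2A had 3.248, 1.255 and 0.4433 CPM with the control shRNA and 0.9351 to 2.81 CPM (median 2.286) with the COPB2 shRNAs (at least 67.69-fold, edgeR adjusted p = 6.167e-05). SPRR2D had 2.165, 1.057 and 0.38 CPM and 1.006 to 2.81 CPM (median 2.076) in the same libraries (at least 66.18-fold, edgeR adjusted p = 2.118e-05). Neither gene had a read in a DMSO library. Of the 75-base windows of SPRR2A, 25.2% are shared with a paralogue, mostly SPRR2B, and of those of SPRR2D 8.8%, so the split between SPRR2 genes is uncertain.

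Of the antimicrobial genes outside the complex, LCN2 rose in OIS and SLPI did not pass the count filter in ER:RAS cells. LCN2 (chromosome 9, 128149453 to 128153453) had 1.714, 1.387 and 0.57 CPM in OIS with the control shRNA and 0.651 to 2.172 CPM (median 1.27) with the COPB2 shRNAs. Its DMSO libraries held 3 reads at most (ratio 46.89 with the COPB2 shRNAs, counting interval 15.68 to 230.5, edgeR adjusted p = 1.148e-05). SLPI, which lies near PI3 on chromosome 20 (45252239 to 45254564), had 0 to 4 counts in the OIS libraries and 0 to 5 in the ER:RAS DMSO libraries, and these ranges overlapped. PI3 and SLPI, a pair of neighbouring elastase inhibitors, thus had very different counts in the same cells.

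**Figure D3:**
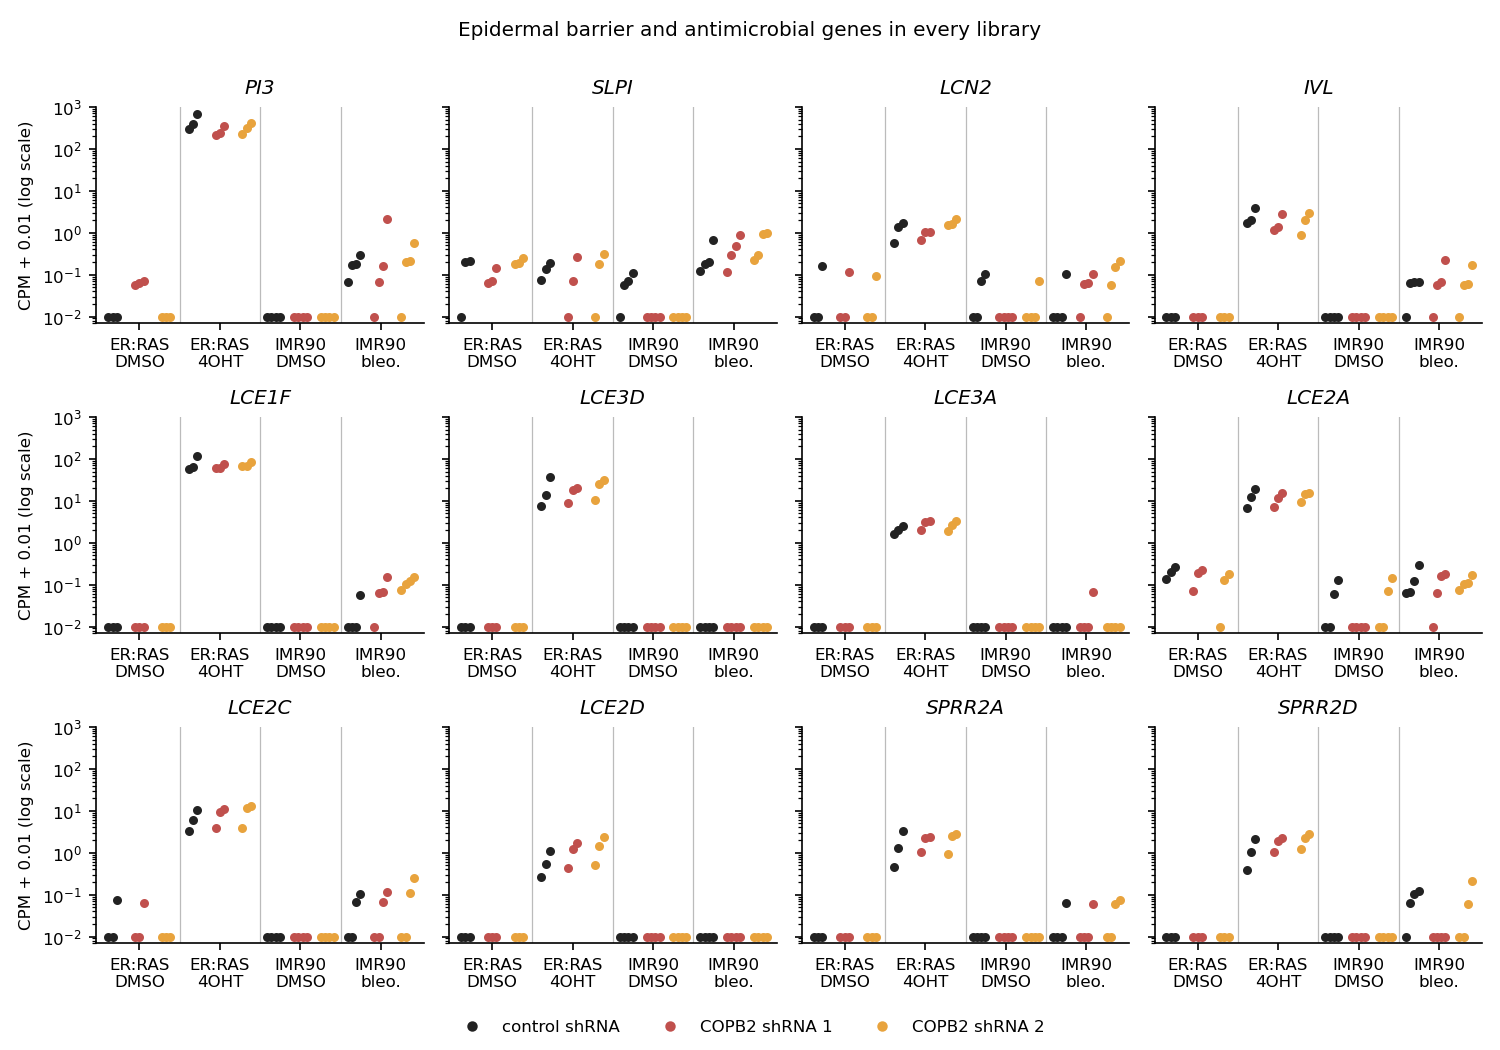
Every library of DMSO and senescent cells in both lines is a point, coloured by shRNA, for 12 barrier and antimicrobial genes, with CPM plus 0.01 on a log axis. PI3 lies between 215.6 and 667.5 CPM in the 9 OIS libraries and between 0 and 2.113 CPM after bleomycin, whereas the median of SLPI is 0.2865 CPM after bleomycin and 0.1267 CPM in OIS.

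Within each OIS group the levels were uneven. Of the 11 barrier and antimicrobial genes at 1 CPM or more, 10 had their lowest level in the library numbered 3 of each of the 3 OIS groups, IVL being the exception. In raw counts this did not hold for all 10: with both COPB2 shRNAs LCE1F and PI3 were lowest in the library numbered 1. Of the 19 members tested, 16 were higher and 0 lower in OIS with the control shRNA, beside 15.5% higher and 20.2% lower among all 14297 genes. The genes were proposed with these libraries in view, so these calls are a description and nothing is read from their number. Under the COPB2 hairpins 16 were higher and 1 lower, beside 21.7% and 30.1% of all genes. Of the 19, 11 held 5 counts or fewer in every ER:RAS DMSO library and passed the filter on low counts only through OIS. Their number and the p-values given for them above therefore support nothing. By a rule that needs no fit (every DMSO library at 3 counts or fewer, every senescent library above), OIS switched on 11 members with the control shRNA and 10 with the COPB2 shRNAs, beside 0.952% and 0.729% of all symbols. These were PI3, LCE1F, LCE2C, LCE2D, LCE3A, LCE3D, IVL, LCN2, SPRR2A and SPRR2D with both, and LCE1C with the control shRNA. PI3 and LCE1F had prompted the choice of the set in the control shRNA libraries, so nothing is read from the numbers switched on in OIS either.

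The remaining 29 members stayed below 1 CPM in every group, with 0.6652 CPM as the highest group mean. When no filter on low counts was applied, 23 members were higher in OIS with the COPB2 shRNAs and none lower, beside 16.7% of 21212 genes higher. The genes that this added were LCE1A, LCE1C, LCE1D, LCE1E, LCE2B, LCE4A and SPRR2E. SPRR2E, with 0 to 16 counts in the OIS libraries and none in DMSO, was at least 18.15-fold higher, and LCE1C at least 13.99-fold. FLG, the gene of filaggrin, had 0 to 2 counts in OIS and up to 3 in DMSO libraries.

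Genes of the S100A family were already expressed in fibroblasts, and 5 of the 8 with at least 1 CPM rose in OIS with the COPB2 shRNAs. S100A16 rose most. Its level was 428.6 to 882.4 CPM (median 785.5) in the 6 OIS libraries with the COPB2 shRNAs and 107.3 to 184.9 CPM (median 153.8) in their DMSO controls. The groups did not overlap, and the log2 fold change was 2.17 ± 0.26 (SE, edgeR adjusted p = 4.174e-06). With the control shRNA the 3 OIS libraries had 1375, 762 and 442.6 CPM and the DMSO libraries 150.8, 222.6 and 171.7 CPM.

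S100A6 (calcyclin) and S100A10, the partner of annexin A2, also rose. S100A6 ran from 1310 to 2110 CPM (median 1976) in OIS and from 466.2 to 1018 CPM (median 813.4) in DMSO with the COPB2 shRNAs, without overlap (log2 fold change 1.19 ± 0.22, edgeR adjusted p = 0.0003583). S100A10 ran from 210.7 to 420 CPM (median 324.3) and from 106.3 to 189.2 CPM (median 155.3), again without overlap (0.98 ± 0.21, edgeR adjusted p = 0.00104). S100A11, which binds annexin A1, rose from 294.3 to 582.7 CPM (median 464.4) to 637.7 to 1152 CPM (median 1099) with a log2 fold change of 1.05 ± 0.22 (edgeR adjusted p = 0.00102). S100A13, which takes part in the release of FGF1, went from 80.85 to 182 CPM (median 143.2) to 164.7 to 384.3 CPM (median 348), with ranges that overlapped (1.08 ± 0.30, edgeR adjusted p = 0.007332). Of its 75-base windows, 16.3% are shared with an overlapping gene model, so its reads are uncertain to that extent.

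S100A2, S100A3 and S100A4 were expressed at low levels. S100A4, also known as fibroblast-specific protein, fell: its level was 2.841 to 6.77 CPM (median 5.272) in OIS and 3.99 to 13.91 CPM (median 9.026) in DMSO with the COPB2 shRNAs, and the ranges overlapped (log2 fold change -0.88 ± 0.33, edgeR adjusted p = 0.03703). The call was not firm: leaving out single libraries gave adjusted p-values of 0.01561 to 0.1542, and with the size factors of DESeq2 it was 0.07772. S100A2, an epithelial S100 protein, reached at most 4.854 CPM (median 3.448) in OIS and ran from 1.154 to 2.615 CPM (median 1.9) in DMSO (0.68 ± 0.39, edgeR adjusted p = 0.1616). S100A3, known from the hair cuticle, had 0.4951 to 2.491 CPM (median 1.955) and 0.673 to 2.236 CPM (median 1.481) in these groups (0.19 ± 0.36, edgeR adjusted p = 0.6922). Neither passed the test. The annotated transcripts of S100A3 and S100A4 overlap on the same strand, so reads in the shared part are uncertain. The S100 proteins of inflamed skin and neutrophils (S100A7, S100A8, S100A9 and S100A12) had 3 counts at most in any OIS library.

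Set side by side per kilobase of annotated exon, the level in OIS was 1954 CPM per kb for S100A6 and 1577 for S100A11. PI3 followed with 626.8 CPM per kb, above S100A16 with 442.2 and S100A10 with 313.9. LCE1F reached 101 CPM per kb, LCE3D 30.45, LCE2A 20.34 and LCE2C 12.81, and IVL and LCN2 stayed below 1, at 0.9614 and 0.8121. PI3, which had no read in most DMSO libraries, thus stood among the S100A genes that fibroblasts always expressed, while LCE1F stood between S100A13 (152.2) and S100A4 (5.777).

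The next question was whether bleomycin did the same. By the rule for genes switched on it did so for 0 members with the control shRNA and for 0 with the COPB2 shRNAs, beside 1.47% and 0.736% of all symbols. LCE3D and LCE2D, with 120 to 479 and 4 to 37 counts per OIS library, had no read in any of the 12 bleomycin libraries. LCE1F, with 882 to 1333 counts per OIS library, had 0 to 3, in 8 of the 12. IVL had 0 to 4 counts (9 of 12 libraries), LCE2A 0 to 6 (11), LCE2C 0 to 5 (6), LCN2 0 to 3 (7), SPRR2D 0 to 3 (5), SPRR2A 0 or 1 (4) and LCE3A a single read in 1 library.

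PI3 after bleomycin was uneven. Its counts were 6, 3, 1 and 3 under the control hairpin, 1, 3, 0 and 45 with COPB2 shRNA 1 and 4, 3, 0 and 12 with COPB2 shRNA 2, and none in the 12 IMR90 DMSO libraries. The library with 45 counts reached 2.113 CPM, against at least 215.6 CPM in every OIS library. Against a floor of 3 counts over the DMSO group, PI3 was at least 4.504-fold higher after bleomycin with the control shRNA and at least 24.73-fold higher with the COPB2 shRNAs, where the libraries numbered 4 gave 45 and 12 of the 68 counts.

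SLPI, in contrast, had reads in every bleomycin library. Its counts were 4, 2, 3 and 13 with the control shRNA, 5, 9, 2 and 19 with COPB2 shRNA 1 and 6, 15, 4 and 19 with COPB2 shRNA 2, against 0 to 2 in the IMR90 DMSO libraries. With the control shRNA the ratio to DMSO was 5.717, with a counting interval of 1.942 to 22.82 (edgeR adjusted p = 0.07928). With the COPB2 shRNAs, where no DMSO library held a read, it was at least 28.73-fold higher (edgeR adjusted p = 2.637e-05). SLPI passed the filter on low counts only through the bleomycin libraries, so nothing is read from its p-values here or below. The highest raw count under each shRNA was in the library numbered 4, though in CPM the library numbered 2 was higher with COPB2 shRNA 2 (0.9856 against 0.903), and without the IMR90 libraries of that number SLPI fell under the filter on low counts and was not tested.

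A few barrier genes had traces after bleomycin and none in OIS. LCE5A, an LCE gene that lies apart from the LCE1 to LCE4 genes, had 1 to 3 counts in 11 of 12 bleomycin libraries and none in the 9 OIS or 21 DMSO libraries. SPRR2G likewise had 1 to 6 counts in 11 of 12 bleomycin libraries and none elsewhere. Against the floor of 3 counts, LCE5A was at least 5.091-fold and SPRR2G at least 7.637-fold higher with the COPB2 shRNAs. In all, 43 members had a read in some bleomycin library and 40 in some OIS library; 7 had reads after bleomycin and none in OIS (LCE5A, S100A7A, S100A12, SPRR1A, SPRR2B, SPRR2G and SPRR4), and 4 the reverse (LCE1D, LCE2D, LCE3D and LCE3E).

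In the test with the filter on low counts, 9 members could be tested after bleomycin. With the control shRNA 1 was called, S100A4, and it was lower, beside 15.4% of 14783 genes higher and 15.8% lower. Under the COPB2 hairpins 7 were higher and 1 lower, beside 27.3% and 25.5%. The 7 include SLPI, from whose call nothing is read. Without the filter the number higher was 3 with the control shRNA, beside 12.6% of 24598 genes, and these were LCE2B, LCE5A and SPRR2G. It was 20 with the COPB2 shRNAs, beside 25.3%, with 1 lower beside 16.1%. These 20 included PI3, LCE1F, LCE1B, LCE2A, LCE2C, LCE5A, IVL, LCN2, SPRR2G, SPRR3, FLG, S100A7 and S100A9, which apart from PI3 had at most 6 counts in a library.

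Of the S100A genes, S100A16 rose after bleomycin as well, but less than in OIS. Under the COPB2 hairpins it ran from 129.9 to 308.2 CPM (median 159.1, n = 8) after bleomycin and from 71.06 to 117.6 CPM (median 86.75) in DMSO, without overlap (log2 fold change 0.92 ± 0.18, edgeR adjusted p = 0.000183). With the control shRNA the levels were 197.3, 173.8, 153 and 100.8 CPM, against 157.9, 84, 95.85 and 97.16 CPM in DMSO, and the groups overlapped (0.50 ± 0.25, edgeR adjusted p = 0.1473).

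S100A2 and S100A3 passed the test after bleomycin with the COPB2 shRNAs, but neither was called with the control shRNA (S100A2 0.66 ± 0.30, edgeR adjusted p = 0.1009). Tested with each COPB2 shRNA alone, S100A2 was called with both and S100A3 with shRNA 2 only. S100A2 ran from 1.597 to 5.585 CPM (median 2.556) with the COPB2 shRNAs and from 0.9041 to 1.689 CPM (median 1.14) in DMSO (1.19 ± 0.21, edgeR adjusted p = 6.307e-05). S100A3 ran from 1.127 to 5.454 CPM (median 1.809) and from 0.5525 to 1.408 CPM (median 0.9946) in these groups (1.14 ± 0.33, edgeR adjusted p = 0.006419). Both pairs of ranges overlapped in their extremes.

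S100A11 rose from 188 to 331.5 CPM (median 221.1) to 281.4 to 676.3 CPM (median 359.4) after bleomycin with the COPB2 shRNAs (0.66 ± 0.19, edgeR adjusted p = 0.004943). S100A6 rose from 370.6 to 616.3 CPM (median 452.2) to 590.8 to 1620 CPM (median 655.6), with 0.70 ± 0.20 on the log2 scale (edgeR adjusted p = 0.005862). S100A13 rose from 74.26 to 113.4 CPM (median 88.36) to 92.55 to 323.6 CPM (median 124.2), with 0.60 ± 0.19 (edgeR adjusted p = 0.009522). These genes had risen in OIS too, and here all 3 pairs of ranges overlapped. None of them was called with the control shRNA (S100A11 0.42, edgeR adjusted p = 0.2521, and S100A13 0.10, edgeR adjusted p = 0.831). Tested with each COPB2 shRNA alone, all 3 were called with shRNA 2 and none with shRNA 1. The highest level of each was in the bleomycin library numbered 2 of COPB2 shRNA 2, and each was still called without that library. S100A10 ran from 48.47 to 341.9 CPM (median 146.7) after bleomycin and from 71.91 to 138.4 CPM (median 91.98) in DMSO (0.56 ± 0.28, edgeR adjusted p = 0.1044), and it did not pass.

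S100A4 was lower after bleomycin with either kind of shRNA. With the control shRNA it had 4.547, 4.529, 3.22 and 2.799 CPM after bleomycin and 7.655, 6.557, 7.189 and 7.579 CPM in DMSO, without overlap (log2 fold change -0.97 ± 0.29, edgeR adjusted p = 0.01373). Under the COPB2 hairpins it ran from 2.291 to 8.805 CPM (median 3.262) and from 4.667 to 6.735 CPM (median 5.938), with overlap through a single high bleomycin library (-0.66 ± 0.20, edgeR adjusted p = 0.009771). Without the IMR90 libraries numbered 4 the adjusted p-values of S100A4 were 0.1331 and 0.1161. With these libraries left out S100A13 no longer passed with the COPB2 shRNAs (edgeR adjusted p = 0.06146) and S100A10 did (0.83, edgeR adjusted p = 0.0196).

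**Figure D4:**
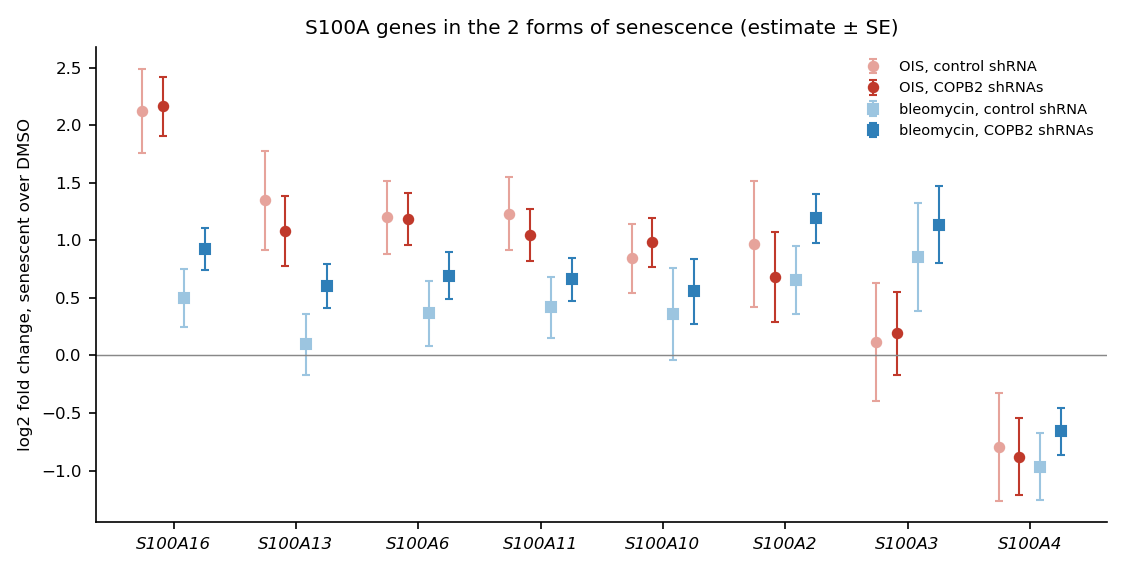
The x axis lists the 8 S100A genes at 1 CPM or more, and the y axis gives the log2 fold change of senescent against DMSO cells with its SE. It is shown in OIS and after bleomycin, with the control shRNA and with the COPB2 shRNAs. S100A16 stands at 2.17 in OIS and 0.92 after bleomycin with the COPB2 shRNAs, and S100A4 is below 0 in all 4 comparisons.

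The 2 responses were then compared in a fit of all 42 libraries, as the change in OIS minus the change after bleomycin with the COPB2 shRNAs. Of the 20 members tested, 1 had a higher and 1 a lower response in OIS, beside 11.5% and 21% of 15299 genes. S100A16 had the higher response (difference 1.29 ± 0.33 on the log2 scale, edgeR adjusted p = 0.002284), which held without the IMR90 libraries numbered 4 (1.29, edgeR adjusted p = 0.005274). SLPI had the lower response (-6.31 ± 1.28 as fitted against DMSO libraries without reads, edgeR adjusted p = 0.0002942). It passed the filter on low counts only through bleomycin, and nothing is read from this p-value. For S100A10, S100A11, S100A13 and S100A6 the differences were 0.46, 0.43, 0.52 and 0.52 and did not pass the test. For PI3, IVL, LCN2 and the LCE and SPRR members tested, edgeR gave no usable estimate of this difference. Its SE was 16.37 for LCN2 and 83.99 for LCE2A, which had a few DMSO reads in both lines. The numbers called by edgeR therefore say nothing about these members. By DESeq2 9 members had a higher response in OIS, PI3, LCE1F, LCE2A and IVL among them, and 1 a lower. All of the 9 but S100A16 passed the filter on low counts through OIS, and the 1 lower, SLPI, through bleomycin. Their number therefore supports nothing.

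The OIS libraries were therefore set against the bleomycin libraries directly, a comparison added after the data had been seen. With the COPB2 shRNAs 16 of 20 members were higher in OIS and 1 lower, beside 25.5% and 32.1% of all genes tested. Of the 20, 11 reached 10 counts in fewer than 3 of the DMSO and bleomycin libraries and passed the filter on low counts through OIS. Their number and their p-values therefore support nothing. PI3, LCE1F, IVL and LCN2 are among these 11 and are given for the size of the difference. PI3 was 9.53 ± 0.62 higher on the log2 scale (edgeR adjusted p = 2.198e-11), 11.01 higher without the bleomycin library that held 45 counts and 11.50 higher without all IMR90 libraries numbered 4. LCE1F was 9.61 ± 0.33 higher (edgeR adjusted p = 4.599e-15), IVL 4.55 ± 0.49 (edgeR adjusted p = 1.706e-07) and LCN2 4.05 ± 0.51 (edgeR adjusted p = 6.635e-08). S100A16 was 1.96 ± 0.23 higher (edgeR adjusted p = 8.868e-09).

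The member that was lower in OIS than after bleomycin was SLPI (-1.96 ± 0.60, edgeR adjusted p = 0.006979). Its p-value supports nothing either, as it passed the filter only through bleomycin. In raw counts every OIS library lay above every bleomycin library for 13 members, beside 2.96% of all 28266 symbols. They were PI3, LCE1F, LCE2A, LCE2C, LCE2D, LCE3A, LCE3D, IVL, LCN2, SPRR2A, SPRR2D, S100A11 and S100A16. All but S100A11 and S100A16 passed the filter on low counts through OIS. The OIS libraries here include those with the control shRNA, in which PI3 and LCE1F prompted the choice. Nothing is read from the number of these members. Without the filter on low counts 25 members were higher in OIS and 3 lower, beside 16.9% and 25.2% of 24790 genes. The 3 that were lower were SLPI, LCE5A (edgeR adjusted p = 0.004414) and SPRR2G (edgeR adjusted p = 0.004574), the latter pair without a read in OIS.

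Before induction, edgeR called no difference between the lines in these genes. Between DMSO libraries of ER:RAS and IMR90 cells with the control shRNA, edgeR called 0 of 20 members, beside 0.346% of all genes, with 3 at an unadjusted p under 0.05 (LCE2A, S100A11 and S100A16), and DESeq2 called 0 as well. The smallest adjusted p was 0.3546.

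No change of a member on depletion of COPB2 was detected. Mean COPB2 levels were 340.4 to 479.3 CPM with the control shRNA and 45.65 to 112.9 CPM with the COPB2 shRNAs, and COPB2 was called in all 8 comparisons of a COPB2 shRNA with the control shRNA. No member was called in any of them, by edgeR or by DESeq2. Among all genes, COPB2 shRNA 1 and shRNA 2 called 0.00699% and 0.00699% in ER:RAS DMSO cells, 0.14% and 0.224% in OIS, 0.00676% and 0.00676% in IMR90 DMSO cells and 0.00676% and 0.0744% after bleomycin. At an unadjusted p under 0.05 there was PI3 alone, with shRNA 1, in ER:RAS DMSO cells and in OIS. Mean PI3 in OIS was 449.3 ± 193.6 CPM (SD, n = 3) under the control hairpin, 264.9 ± 69.82 under COPB2 shRNA 1 and 321.9 ± 97.36 under COPB2 shRNA 2. The log2 changes were -0.76 ± 0.29 and -0.49.

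Defining markers of keratinocytes were read beside these genes. KRT5, a keratin of basal keratinocytes, had no read in any OIS or DMSO library and 0 to 2 counts after bleomycin. KRT14, its partner, had 2 counts in all in OIS, none in DMSO and 0 to 6 after bleomycin. TP63, the transcription factor of basal keratinocytes, had no read in the 9 OIS libraries, 1 to 5 in the ER:RAS DMSO libraries, 0 to 6 in the IMR90 DMSO libraries and 3 to 16 after bleomycin. These defining markers were at or near 0 where the LCE genes and PI3 were highest.

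After bleomycin TP63 was 1.80 ± 0.41 higher on the log2 scale with the COPB2 shRNAs (edgeR adjusted p = 0.0007405). CDH1, the epithelial cadherin, had 4 to 18 counts against 0 to 3 in DMSO (3.77 higher), with 0 to 2 in OIS. GRHL3, a transcription factor of the epidermal barrier, was 4.38 higher (edgeR adjusted p = 7.688e-11). The low counts of barrier genes after bleomycin thus came in libraries in which these markers rose too, and the part of the one in the other was not tested. PTPRC, a leukocyte marker, had 0 to 36 counts after bleomycin, 0 to 8 in OIS and 0 to 6 in DMSO libraries.

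Of a list of 34 keratinocyte and epithelial genes, 4 were higher (KRT15, KRT17, CLDN1 and KRT10) and 4 lower (KRT19, ITGB4, KLF4 and KRT8) of 14 tested in OIS with the COPB2 shRNAs. After bleomycin 12 were higher and 1 lower of 19 tested. Their median log2 fold changes were 0.02 and 1.05, beside -0.10 and 0.01 over all genes. The summed level of the list was 495.2 to 952.8 CPM in OIS, 345.8 to 600.8 in the ER:RAS DMSO libraries, 533.4 to 835.8 after bleomycin and 281.1 to 480.5 in the IMR90 DMSO libraries. In OIS 9 of the 34 had no read in any library, and after bleomycin 0.

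Other genes of the cornified envelope and of the complex moved both ways. Of 29 in the table, 3 were higher and 3 lower of 6 tested in OIS with the COPB2 shRNAs. SMCP, which lies between LCE6A and IVL and encodes a sperm mitochondrial protein, was higher, with 96 counts in OIS and none in the ER:RAS DMSO libraries. ALOXE3, a lipoxygenase of the lipid barrier, was 4.48 ± 0.47 higher (edgeR adjusted p = 9.974e-07), while the envelope plakin PPL had a log2 fold change of -5.65 ± 0.34 (edgeR adjusted p = 2.298e-09), and TGM1, the transglutaminase that builds the envelope, had -1.11 ± 0.33 (edgeR adjusted p = 0.01064). After bleomycin 4 were higher (TCHH, ABCA12, ALOXE3 and CSTA) and 1 lower (PPL) of 7 tested. The summed level of the list was lower in OIS (3.673 to 7.128 CPM) than in the ER:RAS DMSO libraries (10.58 to 25.52 CPM), with no overlap.

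Among 20 partners, receptors and target proteases, 4 were higher and 6 lower of 16 tested in OIS with the COPB2 shRNAs, and 5 and 3 of 17 after bleomycin. ANXA2, the partner of S100A10, was 1.51 ± 0.18 higher in OIS (edgeR adjusted p = 4.019e-06), and TGM2, the tissue transglutaminase, 1.09 ± 0.24 higher (edgeR adjusted p = 0.001236). ELANE, the elastase that elafin and SLPI inhibit, had a log2 fold change of -3.18 ± 0.56 in OIS (edgeR adjusted p = 0.0002038). Of 33 other antimicrobial genes, 3 were higher (ZC3H12A, WFDC10B and WFDC3) and 1 lower (CHI3L1) of 6 tested in OIS, and 3 and 1 after bleomycin. ZC3H12A, an RNase that restrains inflammation, was 3.90 ± 0.23 higher in OIS (edgeR adjusted p = 1.807e-09). ANXA2 and ZC3H12A were also called higher, and ELANE lower, after bleomycin, with the control shRNA and with the COPB2 shRNAs. TGM2 was not called there.

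Fibroblast markers stayed abundant, though most fell in OIS and after bleomycin. COL1A1 had 1345 to 2493 CPM in OIS and 2773 to 5286 CPM in the ER:RAS DMSO libraries (log2 fold change -1.40 ± 0.16 with the COPB2 shRNAs, edgeR adjusted p = 3.207e-06), and VIM was 0.99 higher. COL1A2 had 424.3 to 951.4 CPM in OIS and 4029 to 6664 CPM in the ER:RAS DMSO libraries. Of 16 fibroblast genes, 2 were higher and 10 lower in OIS with the COPB2 shRNAs, and 0 and 13 after bleomycin. Their median log2 fold changes were -1.32 and -1.21, beside -0.10 and 0.01 over all genes. DCN, COL3A1 and LUM fell most in OIS. Of 16 myeloid genes, 2 were higher and 1 lower of 4 tested in OIS, and 4 and 2 of 6 after bleomycin, with a summed level of 83.97 to 122.9 CPM in OIS and 57.55 to 109.8 CPM after bleomycin, against 16.14 to 58.64 CPM over all DMSO libraries. The part of other cell types in the members' levels was not tested beyond these values.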

How the data were processed

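Poly(A) RNA was measured by the authors in 42 libraries, made from 200 ng of total RNA with a directional kit and read from one end. The deposited table holds raw counts per gene symbol with no normalization. Sources differ on how these counts were made by the authors. The submitters' processing notes name STAR 2.7.8a, DRAGEN, DESeq2 1.32.0 and hg38, whereas the study's methods give Tophat, hg19, an Ensembl annotation and HTSeq. No coordinate entered a count here. Coordinates and promoters were taken from RefSeq GRCh38.p14, overlaps, exon lengths and transcript sequences from a GENCODE annotation on GRCh37, and the counting mode for shared reads is not given in the sources used here.

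Every library was placed in 1 of 12 groups by its title. Low-count genes were dropped by filterByExpr and library sizes adjusted by TMM. Groups were compared in edgeR 4.0.16 under R 4.3.3, by its robust quasi-likelihood test, two-sided. All 18 ER:RAS libraries shared a fit, as did all 24 IMR90 libraries, and all 42 entered the fit that sets OIS against bleomycin. P-values were adjusted by Benjamini-Hochberg over every gene in the fit, and the call was set at an adjusted p under 0.05. Comparisons with the COPB2 shRNAs are the mean over both. CPM come from TMM over the 42 libraries. A group without reads was set to 3 counts for a fold, which is then a lower bound, and with 1 to 3 reads the ratio is given with its exact 95% counting interval. Reads carry no molecular identifiers, so floors and intervals cover counting error only. Paralogues were compared in 75-base windows of their transcripts.

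The members, gene lists and tests were chosen with earlier results of these data known. Members with a group mean of at least 1 CPM are described with their values, and those called or switched on are also given by library. From the context lists up to 3 called genes each way may be named, beside the defining markers. The fits were tested on simulated data. The alternatives were DESeq2 size factors, no filter, DESeq2 1.42.0 with its Wald test, fits restricted to the groups compared, replicate number as a block, calls required to reach 1 on the absolute log2 scale, 10 in place of 3 counts, only the 250 bases before the start, the IMR90 libraries numbered 4 left out, and each library left out in turn. No pair of libraries agreed within sampling noise. The direct comparison of OIS with bleomycin libraries was added after the data had been seen.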

Additional observations from a re-analysis of the deposited data

Results flagged for a closer look

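Of 57 combinations of a member and a group of 4 libraries, 4 held a library far from the other 3, and chance alone gives about 1 in 20. PI3 had 2.113 CPM in the fourth bleomycin library with COPB2 shRNA 1, against 0 to 0.1537 CPM in the others. SLPI had 0.6739 CPM in the fourth bleomycin library with the control shRNA, against 0.1147 to 0.1915 CPM. S100A13 had 147.2 CPM in the first IMR90 DMSO library with the control shRNA, against 94.38 to 96.43 CPM. S100A4 had 5.123 CPM in the third IMR90 DMSO library with COPB2 shRNA 1, against 6.468 to 6.735 CPM. Groups of 3 libraries were not looked at in this way.

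In 2 members the response in OIS differed from that after bleomycin by the test of the difference itself. The log2 difference was 1.286 for S100A16 (SE 0.3268, edgeR adjusted p = 0.002284) and -6.313 for SLPI (SE 1.281, edgeR adjusted p = 0.0002942). The size of the latter was fitted against DMSO libraries without reads and is no bound. SLPI passed the filter on low counts only through bleomycin, so nothing is read from its p-value. The inducer and the cell line cannot be told apart in either member.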

How the results depend on the processing

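The number of members called after bleomycin with the control shRNA, 1 as reported, was 4 without the filter on low counts, 2 by DESeq2, 0 when calls had to reach 1 on the absolute log2 scale and 0 without the IMR90 libraries numbered 4. It ran from 1 to 3 when single libraries were left out, with 3 without the first DMSO library of the control shRNA and 2 without the fourth bleomycin library. With the COPB2 shRNAs it was 8, and became 21 without the filter and 3 with that log2 limit. Members whose responses differed between OIS and bleomycin numbered 2, but 10 by DESeq2 and 1 without the IMR90 libraries numbered 4, where SLPI was no longer tested. The direct comparison of senescent libraries called 17 members and 28 without the filter. For OIS with the control shRNA, 16 became 10 in a fit restricted to those 2 groups. Members switched on in OIS with the control shRNA numbered 11, and 7 with 10 in place of 3 counts. Those switched on by bleomycin with the COPB2 shRNAs ran from 0 to 1 when single libraries were left out, the 1 being SLPI without the third library of COPB2 shRNA 1. More genes enter where no filter is applied, and fewer libraries where some are left out. Otherwise the cause was not tested. All other counts of members stayed within 1.5 times the reported value under the alternatives run.

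The S100A4 difference of responses ran from -0.366 to 0.1032 when single libraries were left out, and S100A2 in the direct comparison ran from -0.04346 to 0.3742. With DESeq2 size factors the median log2 fold change of all genes in OIS moved from -0.08 to 0.04 with the control shRNA and from -0.1035 to -0.0019 with the COPB2 shRNAs.

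Libraries share replicate numbers across groups. The correlation of their deviations from group means was over 0.1 in 15 of 21 pairs in ER:RAS cells (-0.55 to 0.847) and 23 of 28 in IMR90 (-0.475 to 0.787), so the numbers were not taken to pair them. With the replicate number as a block, 3 members were called after bleomycin with the control shRNA, 8 between uninduced ER:RAS and IMR90 cells, and S100A3 turned to 0.06961 in the direct comparison. The block moved no other count of members by over 1.5 times.

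Depth limits the low genes: most LCE and SPRR genes after bleomycin rest on 0 to 6 reads per library, and 0 reads allow up to 3.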

Other observations

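CRCT1, which lies between LCE5A and LCE3E and encodes a cysteine-rich protein of the epidermal differentiation complex, is not a member and was picked out after its values had been seen. It had 12 to 39 counts in each of the 9 OIS libraries (mean 1.627 ± 0.5514 CPM, SD) and none in the 21 DMSO or 12 bleomycin libraries. The LCE3 genes next to it were uneven, with LCE3D at 120 to 479 counts per OIS library, LCE3A at 26 to 49 and LCE3B and LCE3C without a read in any library.

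Of the 29 listed genes of the cornified envelope and the complex that are not members, 8 had no read in any OIS library, and after bleomycin this held for 0. In the DMSO libraries it held for 14 in ER:RAS cells and 16 in IMR90 cells. Their summed level was 7.747 to 19.2 CPM after bleomycin and 14.87 to 26.16 CPM in the IMR90 DMSO libraries, so more of the genes had reads after bleomycin while their sum was not above that in DMSO.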
